A study of Homo sapiens with 8 samples.

Results

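The genes described here are the components of TGF-beta, Nodal and BMP signalling, 51 genes drawn up around LEFTY1 and chosen by symbol: the ligands, receptors, SMAD proteins, extracellular and intracellular inhibitors and direct target genes of the pathway. A gene counted as measured when a non-control probe of the array carried a RefSeq accession of that symbol. Probes were found for 50 of the 51 genes, 63 probes in all, among 47753 genes on the arrays. LEFTY1 was already known to rise in this comparison when the list was made, so its values are a description and carry no test.

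The RNA came from OAW42-R, a cisplatin-resistant line obtained from the human serous ovarian cancer line OAW42 by repeated exposure to cisplatin. Cells received either a non-targeting pool of siRNAs (sictrl) or siRNAs number 2 and 4 together against the long noncoding RNA UCA1 (siUCA1). The siRNAs were given at 20 nM. The labels give a time of 24 h, while the study's methods give a longer time between transfection and RNA extraction. Each condition had 4 single-colour Agilent arrays, with the replicate names A1, M2, A2 and A3 in both, and the labels name no cisplatin given to these samples. All cells are of 1 line, and both siRNAs were always given together, so the values hold for that line and that mixture.

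Ligands of the TGF-beta superfamily bring together type II and type I receptors, and the type II receptor activates the type I receptor. TGF-beta, activin and Nodal receptors phosphorylate SMAD2 and SMAD3, BMP receptors phosphorylate SMAD1, SMAD5 and SMAD9, and both sets enter the nucleus with SMAD4. The LEFTY proteins bind Nodal and its coreceptor and block Nodal signalling, while SMAD6, SMAD7, BAMBI and PMEPA1 are feedback inhibitors and the ID genes are classical BMP targets. In ovarian tissue activins, inhibins and BMPs regulate follicle growth, and TGF-beta signalling is known in ovarian cancer for its part in epithelial plasticity.

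SMAD proteins bind short DNA motifs, and the promoters of the members were read for 3 of them so that the genes below can be seen with their upstream sequence. RefSeq promoters (GRCh38.p14, 250 bases before to 50 after the first start listed for a gene) were found for 43 members, and no entry was matched for BMP1, BMP2, BMP7, INHBE, LEFTY1, LEFTY2, SKI and TDGF1. The GC-rich motif GGCGCC, which reads the same on both strands, was in 16 of the 43 promoters (37.2%) and in 19.0% of all 27305 promoters, and the members' promoters had a median GC content of 68.7% against 58.3%. The motif CAGACA, searched on both strands, was in 7 member promoters (16.3%) and in 16.8% of all. The palindrome GTCTAGAC, which shares the letters AGAC with CAGACA, was in 1 member promoter and in 0.2% of all. The stretches below, 30 bases each and all upstream of the start, are shown because they carry these motifs (in capitals) in a called ligand gene, a called inhibitor and a pair of feedback inhibitors that did not pass the test.
INHBB, chr2:120345953-120345982, plus strand: cccggggccctcGGCGCCccttccctgccg
BAMBI, chr10:28677313-28677342, plus strand: gcgccccagccgGGCGCCccagacgccggc
PMEPA1, chr20:57711662-57711691, minus strand: gcaggggctgagGGCGCCcagttcacagca
SMAD6, chr15:66702206-66702235, plus strand: ccgcggagccgccaaagtGTCTAGACtggc
The letters are a description of the promoters and no binding was measured. Among the 6 called members with a promoter entry, GGCGCC was found for BAMBI, INHBB and SMAD5, which rose in 1 case and fell in the other 2.

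Values below are log2 intensities relative to the 75th percentile of the same array, so 0 is that percentile and a difference of 1 is a doubling. UCA1, the targeted RNA, was between 7.48 and 8.60 on the sictrl arrays and between 2.59 and 3.68 on the siUCA1 arrays (log2 fold change -5.04, adjusted p = 0.000122, limma with Benjamini-Hochberg adjustment). All 8 arrays were on 1 slide, with 20858 to 24039 spots well above background and none saturated. The sictrl array of replicate A3 and the siUCA1 array of replicate A1 had the largest surface trends (root mean square 0.321 and 0.287, against 0.0737 to 0.0943 on the other 6), so calls and directions that change without them are given both ways, in part among the results that depend on the processing. Of 9 epithelial and serous carcinoma markers, 7 were well above background on all 8 arrays, among them PAX8 and EPCAM, and MUC16 and WT1 were on none. CDH1, the E-cadherin gene of epithelial junctions, fell by 0.81 (adjusted p = 0.0152 over all probes, limma) and was the 1 marker called. EPCAM was 0.50 higher without overlap and did not pass (adjusted p = 0.0678), and the brightest probes of PAX8, KRT7, KRT8, KRT18 and KRT19 had overlapping groups and differences from -0.16 to 0.56. The part of these shifts in the changes below was not tested. None of 5 fibroblast markers was well above background on all arrays, nor were the leukocyte markers PTPRC and CD3E, while of the endothelial markers VWF was, with overlapping groups.

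Genes were tested when a probe was well above background on every array of at least 1 condition, which left 15454 genes, of which 1788 had an adjusted p under 0.05 (11.6%, limma). Of the 51 members, 29 were tested. Of the 28 other than LEFTY1, 7 were called (25.0%). BMP6, BMP2, TGFBR2, TGFBR3 and BAMBI were higher in siUCA1, beside 5.72% of all genes, and INHBB and SMAD5 were lower, beside 5.85%. The median log2 fold change of the 28 was 0.18, against 0.03 over all genes tested, and 20 of the 28 lay above 0, beside 54.1% of all genes. When arrays were scaled to their median instead, 16 of the 28 lay above 0, beside 40.6% of all genes. The groups did not overlap for 10 of the 28 members, which was the case for 20.9% of all genes. Since the list was drawn up with this comparison in view, the shares are descriptive.

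**Figure D1:**
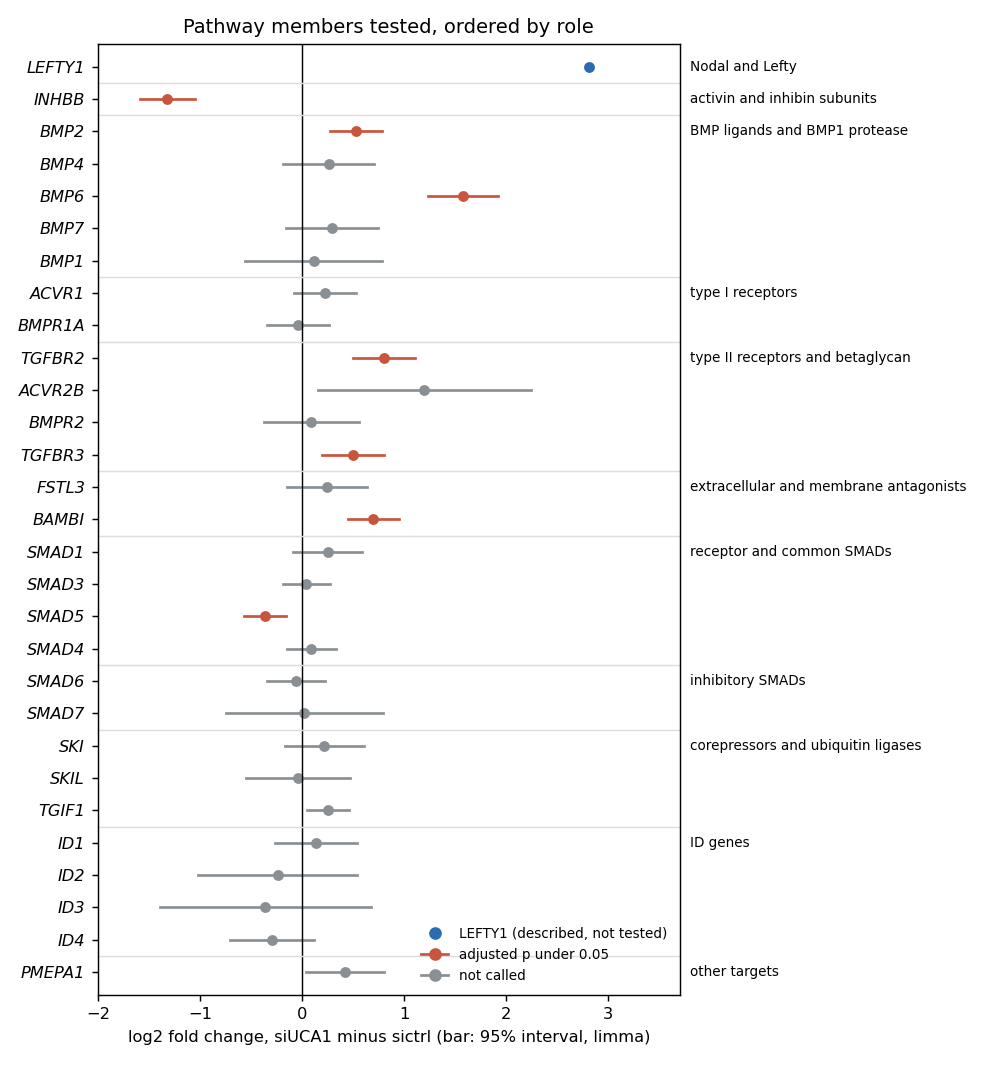
Log2 fold change (siUCA1 minus sictrl, horizontal axis) of the 29 members tested, ordered by role, with 95% intervals from limma over 4 arrays per condition, except for LEFTY1, which is shown as a point without an interval. Only the interval of BMP6 lies wholly above 1, only that of INHBB lies wholly below -1, and the members not called have intervals that mostly lie within 1 of 0.

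Nodal and its inhibitors come first. LEFTY1, a secreted inhibitor of Nodal, was at -1.85, -1.04, -2.03 and -1.86 on the sictrl arrays (replicates A1, M2, A2 and A3) and at 0.27, 1.53, 1.33 and 1.34 on the siUCA1 arrays. Its probe was well above background on all 8 arrays, and every siUCA1 value lay above every sictrl value. The means were -1.69 ± 0.45 and 1.12 ± 0.57 (SD, n = 4), a 7.02-fold higher signal in siUCA1 (log2 fold change 2.81). In RNA from whole cultures, a change in the share of cells of a kind and a change in the RNA per cell cannot be told apart. LEFTY1 stood lowest among the siUCA1 arrays on replicate A1, and its log2 fold change was 3.09 without that array. With another background correction (normexp on the spot and local background signals) it was 1.51.

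The genes that LEFTY1 acts on or resembles were not seen. NODAL, the ligand it blocks, was on no array well above background and lay at -1.99 to -0.95 log2 units relative to the weakest signal that was. LEFTY2, the closely related gene separated from LEFTY1 on chromosome 1 by 2 annotated genes, had 2 probes, and both lay at -2.27 to -2.05 relative to that limit. TDGF1, which encodes the Nodal coreceptor Cripto, was not analysed here because no probe matched it. So neither Nodal nor LEFTY2 transcripts were detectable in sictrl or in siUCA1 at this sensitivity.

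**Figure D2:**
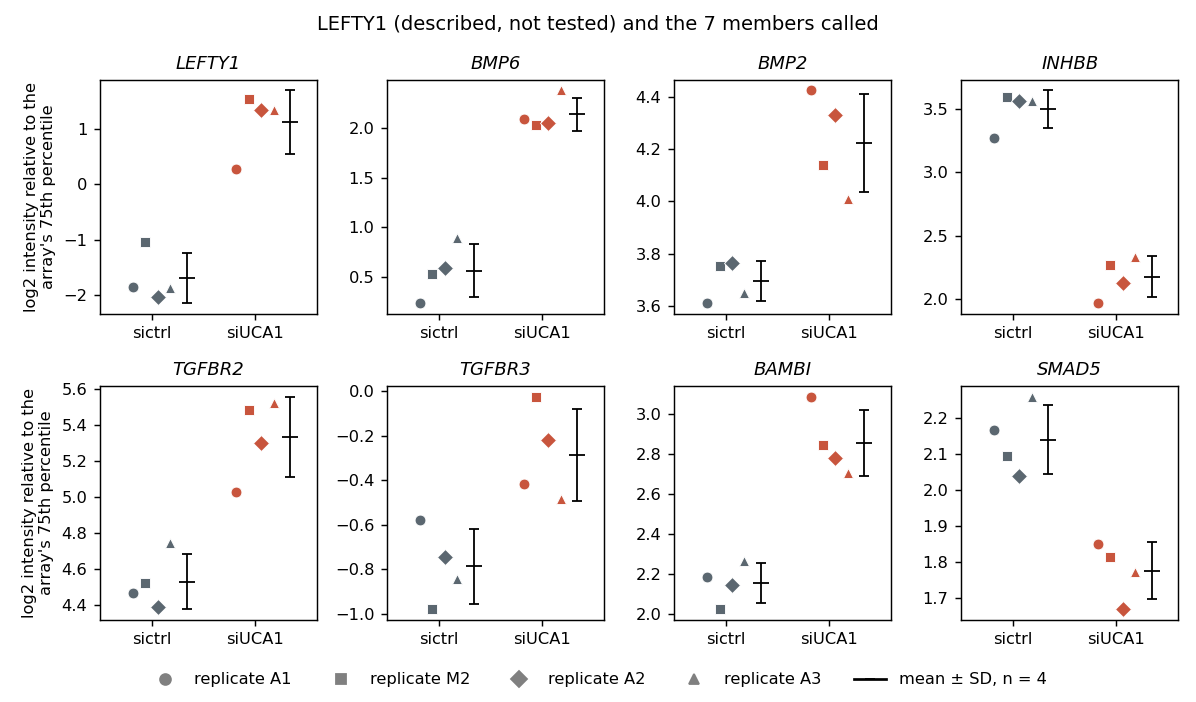
Log2 intensity relative to the array's 75th percentile (vertical axes, different ranges) on each of the 8 arrays for LEFTY1, which is shown without a test, and the 7 members called at an adjusted p under 0.05; symbols mark the replicate name and black bars the mean ± SD of 4 arrays. No sictrl value overlaps a siUCA1 value in any panel, LEFTY1 on siUCA1 replicate A1 (0.27) sits apart from the other 3, and INHBB and SMAD5 are the panels in which siUCA1 is lower.

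BMP ligand genes rose or did not pass the test, and none of the 5 tested fell. BMP6, whose product signals through SMAD1, SMAD5 and SMAD9 and induces hepcidin in iron regulation, was at 0.24, 0.53, 0.59 and 0.89 in sictrl and at 2.10, 2.03, 2.05 and 2.38 in siUCA1. The lowest siUCA1 array stood 1.14 log2 units above the highest sictrl array, and the signal was 2.99-fold higher (log2 fold change 1.58 ± 0.15 SE, adjusted p = 0.00142, limma). BMP2, a bone and heart morphogen, was at 3.61, 3.75, 3.76 and 3.65 in sictrl and at 4.42, 4.14, 4.33 and 4.01 in siUCA1. The groups did not overlap and the difference was small (log2 fold change 0.53 ± 0.11, adjusted p = 0.0201, limma). Its call was lost without sictrl A1, sictrl M2, sictrl A2 or siUCA1 A2 (adjusted p = 0.0547 to 0.0725), with median scaling (0.292) and with normexp (0.160).

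BMP4, BMP7 and BMP1 did not pass. BMP4, a ligand of the same branch as BMP2, was between -2.61 and -2.09 in sictrl and between -2.66 and -1.81 in siUCA1 (0.26, adjusted p = 0.43, limma), near the lower end of what the arrays could measure. Without both sictrl A3 and siUCA1 A1 the value was 0.54 (adjusted p = 0.0142). BMP7, a ligand of kidney and skeletal development, had 3 probes with log2 fold changes of 0.29, 0.29 and 0.01, and the groups overlapped on the brightest (adjusted p = 0.382; 0.52 with adjusted p = 0.0827 without both of those arrays). BMP1, which is not a BMP but a protease that cleaves procollagen and the BMP antagonist chordin, had a log2 fold change of 0.12 with an interval from -0.55 to 0.79, so 4 of the 5 genes tested in this group are ligands.

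The activin and inhibin genes held the largest fall among the members tested. INHBB encodes the beta B subunit shared by activin B and inhibin B, and its upstream GGCGCC stretch is printed above. It was at 3.27, 3.59, 3.56 and 3.56 on the sictrl arrays and at 1.97, 2.27, 2.13 and 2.34 on the siUCA1 arrays. The nearest arrays of the groups were 0.94 apart, and the signal was 2.50-fold lower in siUCA1 (log2 fold change -1.32 ± 0.12 SE, adjusted p = 0.00125, limma). The partners of that subunit were not detected: INHBA, the beta A subunit, INHA, the inhibin alpha subunit, and INHBE were on no array well above background. FST, the activin-binding protein follistatin, was also on none, whereas its relative FSTL3 was on all 8, with a difference of 0.24 on the log2 scale (adjusted p = 0.405), or 0.42 (adjusted p = 0.111) without both sictrl A3 and siUCA1 A1.

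The TGF-beta ligands could not be compared. TGFB1 was well above background on 2 sictrl arrays and on no siUCA1 array, TGFB3 on 1 sictrl and 3 siUCA1 arrays, and TGFB2 on none. Of the latent TGF-beta binding proteins, which hold the ligand in the matrix, LTBP1 was seen on 1 siUCA1 array and LTBP2 on none. TGFB1 lay 0.86 and 0.99 above the array's limit on sictrl A2 and A3 and below it on the other 6 arrays.

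**Figure D3:**
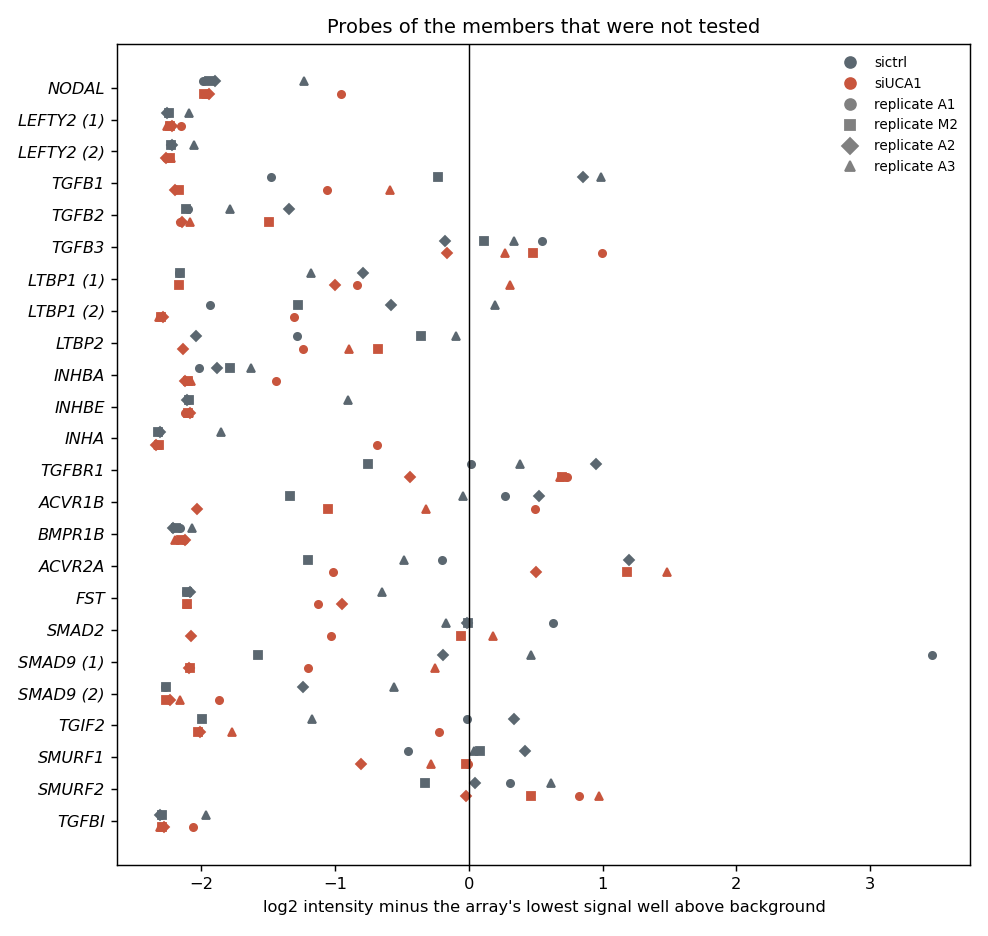
Log2 intensity of each probe of the 21 members with probes that were not tested, minus the lowest signal well above background on the same array (horizontal axis), for the 8 arrays; numbers in brackets separate probes of one gene. Most points lie left of 0, NODAL and both LEFTY2 probes lie wholly there in both conditions, and 1 point, SMAD9 on sictrl replicate A1, lies 3.46 to the right.

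Of the 6 receptors tested among the 51 genes, TGFBR2 and the coreceptor TGFBR3 were called, both higher, beside the 5.72% of all genes called higher. TGFBR2, the type II receptor that binds TGF-beta ligands, was at 4.46, 4.52, 4.39 and 4.74 in sictrl and at 5.03, 5.48, 5.30 and 5.52 in siUCA1. The groups did not overlap and the signal was 1.75-fold higher (log2 fold change 0.80 ± 0.14, adjusted p = 0.00883, limma), a call that was kept without each array in turn and lost with median scaling (0.108) and normexp (0.0938). TGFBR3, the betaglycan coreceptor that presents TGF-beta and inhibin, was at -0.58, -0.98, -0.74 and -0.84 in sictrl and at -0.41, -0.02, -0.22 and -0.49 in siUCA1. The highest sictrl and lowest siUCA1 arrays were 0.09 apart (log2 fold change 0.50, adjusted p = 0.0451). Leaving out any array but siUCA1 A1 ended the call (adjusted p = 0.0525 to 0.127), as did the replicate block (0.0892).

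ACVR2B, a type II receptor for activins and Nodal, had the largest log2 fold change among the members not called. It was at 1.01, 1.40, 1.05 and -0.96 in sictrl and at 1.74, 1.95, 2.06 and 1.55 in siUCA1. The groups did not overlap, and the array of sictrl replicate A3 stood far under the other 3. The log2 fold change was 1.20 ± 0.46 (adjusted p = 0.129, limma), and without sictrl A3 it was 0.67 (adjusted p = 0.0314). BMPR2, the BMP type II receptor, had a log2 fold change of 0.09 with an interval from -0.37 to 0.55.

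Of the type I receptors among the 51 genes, 2 were tested and neither passed. BMPR1A, a BMP receptor, had 3 measurable probes with log2 fold changes of 0.04, -0.02 and -0.04, whose signs differ around a value near 0. ACVR1, a type I receptor of the BMP branch, gave a log2 fold change of 0.23 (adjusted p = 0.317). TGFBR1, the partner of TGFBR2, was well above background on 3 arrays of each condition and ACVR1B, the activin and Nodal type I receptor, on 1 sictrl array, so neither was tested. ACVR2A was seen on 1 sictrl and 3 siUCA1 arrays and BMPR1B on none.

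BAMBI, a membrane pseudoreceptor without a kinase domain that dampens TGF-beta and BMP signals, was called, and of the extracellular and membrane antagonists other than LEFTY1 only FSTL3 was also tested. It was at 2.18, 2.02, 2.15 and 2.27 in sictrl and at 3.09, 2.85, 2.78 and 2.71 in siUCA1. The groups were 0.44 apart at their nearest, and the signal was 1.63-fold higher (log2 fold change 0.70 ± 0.11, adjusted p = 0.007, limma). The call was kept without each array in turn and lost with median scaling (0.122) and normexp (0.0541).

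Of the 4 receptor-regulated and common SMAD genes tested, SMAD5 was called, beside the 11.6% of all genes. SMAD5, a BMP-branch transducer, was at 2.17, 2.09, 2.04 and 2.26 in sictrl and at 1.85, 1.81, 1.67 and 1.77 in siUCA1. The groups did not overlap, and the signal was 1.29-fold lower (log2 fold change -0.36 ± 0.09, adjusted p = 0.037, limma). Leaving out any array but siUCA1 A1 ended the call (adjusted p = 0.0507 to 0.117), as did the replicate block (0.0517), the slide row as a block (0.0637), median scaling (0.271) and normexp (0.483).

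SMAD1, the other BMP-branch transducer tested, differed by 0.25 on the log2 scale (adjusted p = 0.319), and 0.42 (adjusted p = 0.045) without both sictrl A3 and siUCA1 A1. SMAD3, named here after its value was seen because it carries the TGF-beta and activin branch, had a log2 fold change of 0.04 with an interval from -0.19 to 0.27. SMAD4, the common partner, had 2 probes at 0.09 and -0.06. SMAD2 and SMAD9 were each well above background on 1 sictrl array only and were not tested.

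None of the 10 inhibitory SMADs, corepressors and target genes tested among the 51 genes was called, beside the 11.6% of all genes. The inhibitory SMADs are named here after their values were seen. SMAD6, whose promoter carried the palindrome printed above, had a log2 fold change of -0.06 (interval -0.34 to 0.23, adjusted p = 0.815). SMAD7 had a log2 fold change of 0.02, and its interval was wider (-0.75 to 0.79). Replicate A1 was low in both conditions, at -0.42 in sictrl and -0.33 in siUCA1 against 0.54 to 0.90 elsewhere.

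Among the corepressors, TGIF1, a homeodomain protein that binds SMAD2 and SMAD3, was between 2.44 and 2.58 in sictrl and between 2.69 and 2.94 in siUCA1. These groups did not overlap, but the log2 fold change of 0.25 did not pass (adjusted p = 0.11, limma). SKI and SKIL, which repress SMAD complexes, had values of 0.22 and -0.03. TGIF2 was on no array well above background. The ubiquitin ligases SMURF1 and SMURF2, which turn over receptors and SMADs, were on some arrays only.

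PMEPA1, a membrane protein induced by TGF-beta that sequesters SMAD2 and SMAD3, was measured by 2 probes, and on both every siUCA1 array lay above every sictrl array. The brighter probe was at 0.38, 0.66, 0.64 and -0.06 in sictrl and at 0.66, 0.90, 0.73 and 1.00 in siUCA1, so that the nearest arrays were 0.0047 apart. Its log2 fold change was 0.42 (adjusted p = 0.148), and the other probe gave 0.39 (adjusted p = 0.151). The mean of the 2 probes passed (0.41, adjusted p = 0.0421, limma), as did the brighter one after a further surface trend was removed (0.48, adjusted p = 0.0435, limma). That further trend was estimated against the mean of the array's own condition, which can narrow the spread within a condition. With it 2418 of all genes were called, against 1788, so this pass is no independent evidence. TGFBI, another TGF-beta target, was on no array well above background.

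The ID genes, which encode inhibitors of helix-loop-helix factors, spanned a wider range among the replicates of a condition than the difference between the conditions. ID3 was at 2.92, 3.32, 3.78 and 4.80 on the sictrl arrays of replicates A1, M2, A2 and A3 and at 2.60, 3.08, 3.37 and 4.34 on the siUCA1 arrays of the same names. The groups overlapped over most of their range, and the siUCA1 value was lower within each replicate name, by 0.25 to 0.46. The log2 fold change was -0.36 ± 0.46 (adjusted p = 0.664, limma), and with the replicate names as a block the adjusted p was 0.0537 (limma). The log2 fold change turned to 0.26 without both sictrl A3 and siUCA1 A1. Those arrays hold the highest sictrl and the lowest siUCA1 value, so leaving them out raises the difference by itself.

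ID4 was at 2.83, 3.02, 3.05 and 3.37 in sictrl and at 2.75, 2.51, 2.59 and 3.26 in siUCA1 (log2 fold change -0.29, adjusted p = 0.343). Its groups overlapped too, and it was likewise lower in siUCA1 within each name. ID2 had 2 probes that differed in sign, at -0.24 and 0.02, and on the brighter one siUCA1 A1 was at 0.72 against 1.73 to 2.54 on the other arrays of that condition. ID2, ID3 and ID4 were highest on replicate A3 in both conditions. ID1, named here after its value was seen as a widely used BMP reporter gene, had a log2 fold change of 0.14 (interval -0.26 to 0.54, adjusted p = 0.657).

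**Figure D4:**
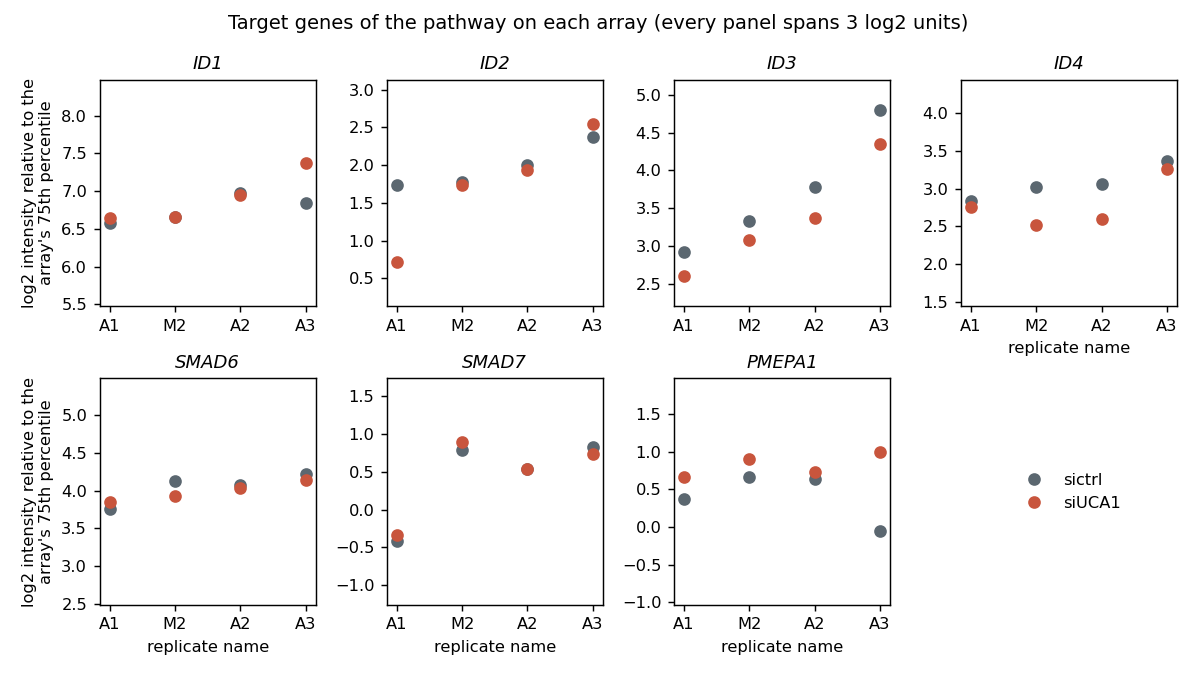
Log2 intensity relative to the array's 75th percentile (vertical axes, each spanning the same 3 units) by replicate name for the 4 ID genes, SMAD6, SMAD7 and PMEPA1, with sictrl in grey and siUCA1 in red. ID3 is under 3 on the A1 arrays and over 4 on the A3 arrays of both conditions, SMAD7 is low on A1 in both, and PMEPA1 is the panel in which all siUCA1 points lie above all sictrl points.

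In all, 21 of the 28 members did not pass. Their log2 fold changes ran from -0.36 to 1.20 with a median of 0.12, and for 18 of them the 95% interval lay within 1 log2 unit of 0 on both sides. Without both sictrl A3 and siUCA1 A1, 10 of 29 members were called, the 7 named above together with ACVR2B, BMP4 and SMAD1. The share of all genes called rose as well, from 11.6% to 24.3%. For BMP4 and SMAD1 the arrays left out hold the highest sictrl and the lowest siUCA1 value, which raises the difference by itself. INHBB and BMP6 were called under every one of the 24 alternative settings run, TGFBR2 and BAMBI under 21, BMP2 under 17, SMAD5 under 12 and TGFBR3 under 11. INHBB and BMP6 were the only 2 members other than LEFTY1 called with median scaling, with normexp or when all 47753 genes were tested without the detection filter.

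Beyond these 51 genes, a longer list of 89 genes of the same pathway (further ligands, receptors, antagonists, latency proteins, transducers and commonly used target genes) was examined. Of the 40 tested, 5 were called (12.5%), near the 11.6% of all genes, with 2 higher and 3 lower and a median log2 fold change of 0.04. USP15, named here after its values were seen, was not called on its brightest probe (0.12, adjusted p = 0.661, limma). Its second kept probe gave 0.62 without overlap (adjusted p = 0.00996 over all probes, limma). ACVRL1, an endothelial type I receptor for BMP9 and TGF-beta, was at -0.04, -0.16, 0.05 and -0.01 in sictrl and at -1.09, -2.08, -1.48 and -1.47 in siUCA1. Its groups lay 0.93 log2 units apart at their nearest, and the signal was 2.81-fold lower (log2 fold change -1.49 ± 0.19, adjusted p = 0.00339, limma).

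CDKN1A, the cell cycle inhibitor p21 that TGF-beta and p53 both induce, was at 1.22, 1.22, 1.27 and 1.52 in sictrl and at 2.90, 2.49, 2.28 and 2.62 in siUCA1. It was 2.40-fold higher with no overlap (log2 fold change 1.26 ± 0.14, adjusted p = 0.00237, limma). Of the intracellular modifiers, STRAP, which binds TGF-beta receptors and SMAD7, fell by 0.68 (adjusted p = 0.0145) and TAB2, an adaptor of the kinase TAK1, fell by 0.47 on its brightest probe (adjusted p = 0.0333; a second kept probe gave -0.28 with overlapping groups and an adjusted p of 0.276), while EP300, the acetyltransferase that serves as a SMAD coactivator, rose by 0.51 (adjusted p = 0.0132). The remaining 11 of the 12 commonly used target genes tested did not pass, with log2 fold changes from -0.62 to 0.65, beside 11.6% of all genes called. Of these, 4 are named here after their values were seen. KLF10 and MYC were lower without overlap (adjusted p = 0.0754 and 0.0785, limma), and the groups of the others overlapped. Within every replicate name IGFBP3 was higher, by 0.58 to 0.70, and ANGPTL4 lower (adjusted p = 0.186 and 0.286, limma).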

How the data were processed

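Gene expression was measured in 8 samples of OAW42-R cells on single-colour Agilent arrays, 4 per condition, grouped by their titles. The authors deposited scanner files whose processed signal is an intensity already background-subtracted and corrected for multiplicative surface trend by Agilent Feature Extraction 10.7.3.1 (version from the submitters' processing notes). The authors also deposited a table of the whole series, which holds the same intensity values spot by spot. Control spots and outlier flags were removed, the deposited signal was taken to log2, and the array's 75th percentile over non-control spots was subtracted. A probe was kept when all 4 arrays of either condition flagged it as well above background (19045 probes), and the brightest kept probe stood for a gene. The conditions were compared in limma 3.58.1 (R 4.3.3) over all 15454 genes, without a block, at a Benjamini-Hochberg adjusted p under 0.05. The script was tested on simulated data. The number of arrays, the signal over background and the surface trends limit the precision, and p-values measure the spread between the 4 arrays of a condition, whose shared names were not used as pairs.

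Symbols came from RefSeq accessions in the array design, and 11994 of the genes tested had one. Named genes were LEFTY1, LEFTY2, NODAL and TDGF1, members passing the test, the 8 others with the largest absolute log2 fold change, members whose probes differed in sign, other pathway genes passing the test and UCA1. Other members and pathway genes are given by count or range, or are said to be named after their values were seen. Some are given with their detection or to complete a role. The members and lists were chosen with earlier results of these data known. The alternatives were other scalings, background corrections, filters, probe summaries, blocks and weights, and leaving out arrays. Promoters came from RefSeq sequences (GRCh38.p14), read with Python 3.11.15. Time after transfection is 24 h in the labels, and the study's methods give a longer time. The result of 1 marker gene is not reported here.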

Additional observations from a re-analysis of the deposited data

Results flagged for a closer look

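In 3 of 58 sets of 4 arrays (each of the 29 members tested, in each condition), 1 array stood farther from the rest than Dixon's critical value at the 95% level allows, and chance does so in about 5% of sets. LEFTY1 on siUCA1 A1 was at 0.27 against 1.33 to 1.53 on the other siUCA1 arrays (gap over range 0.844). ACVR2B on sictrl A3 was at -0.96 against 1.01 to 1.40 on the other sictrl arrays (0.835). Both arrays are those with the large surface trends, and the part of the trend in these values was not tested. INHBB on sictrl A1 was at 3.27 against 3.56 to 3.59 (0.895), and its log2 fold change was -1.39 without that array.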

How the results depend on the processing

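LEFTY1 and the 7 called members kept their direction under all 24 alternative settings, among them quantile normalization and median scaling; the deposited value table, 1 of the 24, holds the same signals and changed nothing. Over all genes, 535 were called with median scaling (21.3% of them higher, against 49.4%), 380 with normexp, 76 without the detection filter, 4803 with array weights and 3878 without both sictrl A3 and siUCA1 A1; leaving out 1 array gave 760 (without sictrl A2) to 2290 (without siUCA1 A1). Of the members, 2 were called with median scaling, with normexp and without the filter, 12 with array weights, and 4 (without sictrl A1, M2 or A2 or siUCA1 A2) to 7 with 1 array left out. Of the other pathway genes, 2 were called with median scaling and with normexp, 0 by limma without the filter (12 at an unadjusted p under 0.05), 15 with array weights, 13 without both arrays, and 3 (without siUCA1 A2) to 9 (without siUCA1 A1) with 1 array left out. Median scaling moved the median of all genes by 0.0957. LEFTY1 moved to 1.51 with normexp.

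Changes of sign arose in 11 members, none of them called, whose log2 fold changes ran from -0.36 (ID3) to 0.14 (ID1). With median scaling BMPR2 was at -0.0045, SMAD3 at -0.0516, SMAD4 at -0.0050 and SMAD7 at -0.0734. SMAD7 was at -0.0085 with normexp and -0.0073 with the further surface trend removed. With array weights SKIL was at 0.1788 and ID2 at 0.0191. Without both arrays SMAD3 was at -0.0047, SMAD6 at 0.0509, SKIL at 0.2035, ID2 at 0.2326 and ID3 at 0.2556. For SMAD6, ID2 and ID3 those arrays hold the highest sictrl and the lowest siUCA1 value, so leaving them out raises the difference by itself. With 1 array left out the log2 fold change ran from -0.1121 to 0.3596 for BMP1, -0.1274 to 0.0197 for BMPR1A, -0.1206 to 0.2026 for BMPR2, -0.0211 to 0.0763 for SMAD3, -0.1548 to 0.0030 for SMAD6, -0.2628 to 0.2863 for SMAD7, -0.1878 to 0.2026 for SKIL, -0.0148 to 0.2303 for ID1, -0.5078 to 0.0982 for ID2 and -0.6895 to 0.0073 for ID3. Other causes were not tested.

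Arrays of the same replicate name had deviations from their group means that correlated at 0.0383 (A1), 0.2778 (M2), 0.2163 (A2) and 0.1266 (A3) over 15444 genes. The siUCA1 A1 array correlated best with sictrl A3 (0.1773), and these are the arrays with the large surface trends. The correlations therefore cannot decide whether the names mark pairs. The paper takes the RNA from independent experiments, and the main fit did not pair the arrays. With the replicate block 5 of the 7 members kept their call, TGFBR3 (adjusted p = 0.0892) and SMAD5 (adjusted p = 0.0517) did not, and 7 other pathway genes were called, against 5. Signal over background limits TGFB1, NODAL and the other members near the detection limit.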

Other observations

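A pair of member probes gave 1 bright spot on the array of sictrl replicate A1. A SMAD9 probe was at 0.51 there and between -4.27 and -2.85 on the other sictrl arrays, and the second SMAD9 probe was well above background on no array. A second ACVR1 probe was at 0.27 there and between -3.33 and -3.06 on the other sictrl arrays. The ACVR1 probe used for the test was at -0.08 on that array and between -0.11 and 0.16 on the others. Such signals were not particular to members, as probes named here after their values were seen show. On sictrl A1 a CHRDL1 probe was at -0.36 and RGMA at -0.86, against -5.10 to -4.26 on the other sictrl arrays. On siUCA1 A3 a PECAM1 probe was at -0.63, against -5.08 to -4.22 on the other siUCA1 arrays.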
